A study of Mus musculus with 4 samples.

Results

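The genes described here are the clustered histone genes and the linker histone genes of the mouse. They were chosen by symbol from the RefSeq annotation of assembly GRCm38.p6 (build mm10). The symbol rule uses no measured value, but it was chosen with earlier results of these data known. Protein-coding genes whose symbol begins with H1f, H2ac, H2bc, H3c or H4c and a digit were taken, which gave 67 of 21887 protein-coding genes. There were 10 linker histone (H1), 17 H2A, 16 H2B, 12 H3 and 12 H4 genes. FOXL2, a forkhead transcription factor of the somatic supporting cells of the ovary, was mapped by ChIP-seq, which sequences the DNA recovered with an antibody to a protein. The tissue was ovary of CD1 embryos, XX by label, at E14.5, in mid-gestation, taken free of mesonephros and used without genetic change or treatment. The series has 2 FOXL2 ChIP samples and 2 input samples (chromatin without antibody), each ChIP from its own pool of ovaries. A single list of 11438 peak positions serves both ChIP samples, and 11435 of these peaks lie on chromosomes 1 to 19, X and Y. Every peak is 300 bp wide and has no height, so read depth is unknown and no value below has a replicate error. Whole ovaries contain supporting cells, germ cells and stroma, and a position list does not say in which cells a site was bound.

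Histones H2A, H2B, H3 and H4 form the core around which DNA is wrapped in the nucleosome, and H1 binds the linker DNA between cores. Most core histone genes are short, lack introns and sit in clusters of near-identical copies that are transcribed together in S phase, when new DNA has to be packaged. Their mRNAs end in a stem-loop instead of a poly(A) tail, and H2A and H2B genes often stand head to head with a common promoter. A few members are restricted to germ cells, where they replace the common forms.

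FOXL2 peaks were found at 50 of the 67 histone genes (74.6%), counting a gene when a peak centre lay in it or within 10 kb of either end. The same count over all protein-coding genes was 49.6%. The windows of histone genes were the shorter ones, with a median of 20.5 kb against 37.2 kb for all genes, because the median histone gene is 496 bp long. These 50 genes were served by 26 distinct peaks, which is 0.227% of all peaks. For all 26 peaks the nearest protein-coding gene was a histone gene, and the closest approach to any other protein-coding gene was 2.56 kb, at H1f0 and Gcat. The median distance to the nearest other gene was 30.1 kb. Counts of genes therefore exceed counts of peaks because neighbours share them, and the number of peaks is the measure that is free of this.

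Sharing was the rule. Of the 50 genes with a peak, 48 had at least 1 peak that also lay in the window of another histone gene, and the exceptions were H1f0 and H1f10, which stand alone in the genome. A peak lay in the windows of 3 histone genes in 9 cases, of 4 in 6 cases, of 2 in 4 cases and of 5 in 3 cases. The most shared peak, chr13:23581404-23581703, lay in the windows of 6 genes, H2bc8, H2bc7, H2ac7, H3c4, H4c4 and H2bc6, and its centre was 15 bp before the start of H4c4. With windows of 2 kb in place of 10 kb, 34 genes had a peak and 25 of them shared it, while 25 of the 26 peaks were still counted. Of the 50 genes, 21 had 1 peak, 26 had 2, H2ac12 and H2bc12 had 3, and H2bc6, the longest of the 67 genes at 37455 bp, had 4.

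The histone genes fall into 3 blocks and 4 single genes. The first Hist1 block, on chromosome 13 from 21715711 to 22043658, holds 22 of the genes. Only 9 of them (40.9%) had a peak in the window, through 5 peaks that sat at the edges of the block. At the low-coordinate edge were chr13:21716230-21716529, between H2bc13 and H2ac13, and chr13:21721696-21721995, whose centre was 199 bp before the start of H2bc14. At the other edge were chr13:22041112-22041411, 101 bp inside H4c9, and chr13:22042828-22043127, between H2ac11 and H2bc11. The fifth, chr13:22028824-22029123, lay outside any histone gene, 6149 bp from the near end of H2ac12, the closest histone gene.

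Between these edges 13 histone genes in a row, from H4c11 to H2ac24, had no peak. They comprise 4 H2A, 3 H2B, 1 H3, 4 H4 genes and the linker histone gene H1f5, over 98.4 kb. The stretch without any peak around them was 218.6 kb long, from the peak before H2bc14 to the next at chr13:21940293-21940592. The nearest peak was 13189 bp from H4c11, 57987 bp from H1f5 and 106967 bp from H2ac24. Across the window limit of 10 kb, every histone gene without a peak was at least 13.2 kb from one, and among genes with a peak the largest distance to the nearest one was 8.94 kb, at H2bc8.

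The second Hist1 block, on chromosome 13 from 23531044 to 23934913, holds 31 genes, of which 29 (93.5%) had a peak in the window. It carried 13 peaks between its first gene, H4c8, and H1f1, and each of them was nearest to a histone gene. None of the 13 had Hfe, Trim38 or the Slc17a genes of the same interval as the nearest gene. Successive peaks of this block lay 1.6 to 61.4 kb apart. Besides those at H4c8, H3c7, H3c6, H4c4 and H1f2, peaks in the windows of 3 to 5 histone genes were chr13:23555017-23555316 at H1f3, chr13:23584915-23585214 at H2bc6, chr13:23698283-23698582 at H4c3, chr13:23746305-23746604 at H2bc3 and chr13:23763589-23763888 at H1f1. The last but one was shared by H1f2, H3c3, H2bc3, H2ac4 and H3c2. The genes without a peak were H2bc1 and H2ac1, the testis forms of H2B and H2A, which stand at the far end of the block, 170 and 171 kb from the nearest peak. The Hist2 block, on chromosome 3 from 96219885 to 96270192, is the most compact, with 10 genes in 50.3 kb, and all 10 had a peak in the window, through 5 peaks. They were chr3:96219782-96220081 at H2ac21, chr3:96245072-96245371 at H2ac18, chr3:96249022-96249321 past the end of H3c14, chr3:96263019-96263318 at H4c14 and chr3:96269777-96270076 at H2bc18. Each lay in the windows of 3 genes, or of 4 in the case of H2ac18. Peaks per 100 kb numbered 2.59 in the first Hist1 block, 3.07 in the second and 7.11 in Hist2, with 10 kb added on either side and peaks at other genes included. Over all chromosomes, between the first and last protein-coding gene of each, the figure was 0.42. None of these figures is adjusted for gene density. The blocks hold 22 histone genes in 327.9 kb, 31 in 403.9 kb and 10 in 50.3 kb. Counted by gene, there were 26 peaks for 67 histone genes. For 21887 protein-coding genes there were 11435 peaks, at any distance from a gene.

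**Figure D1:**
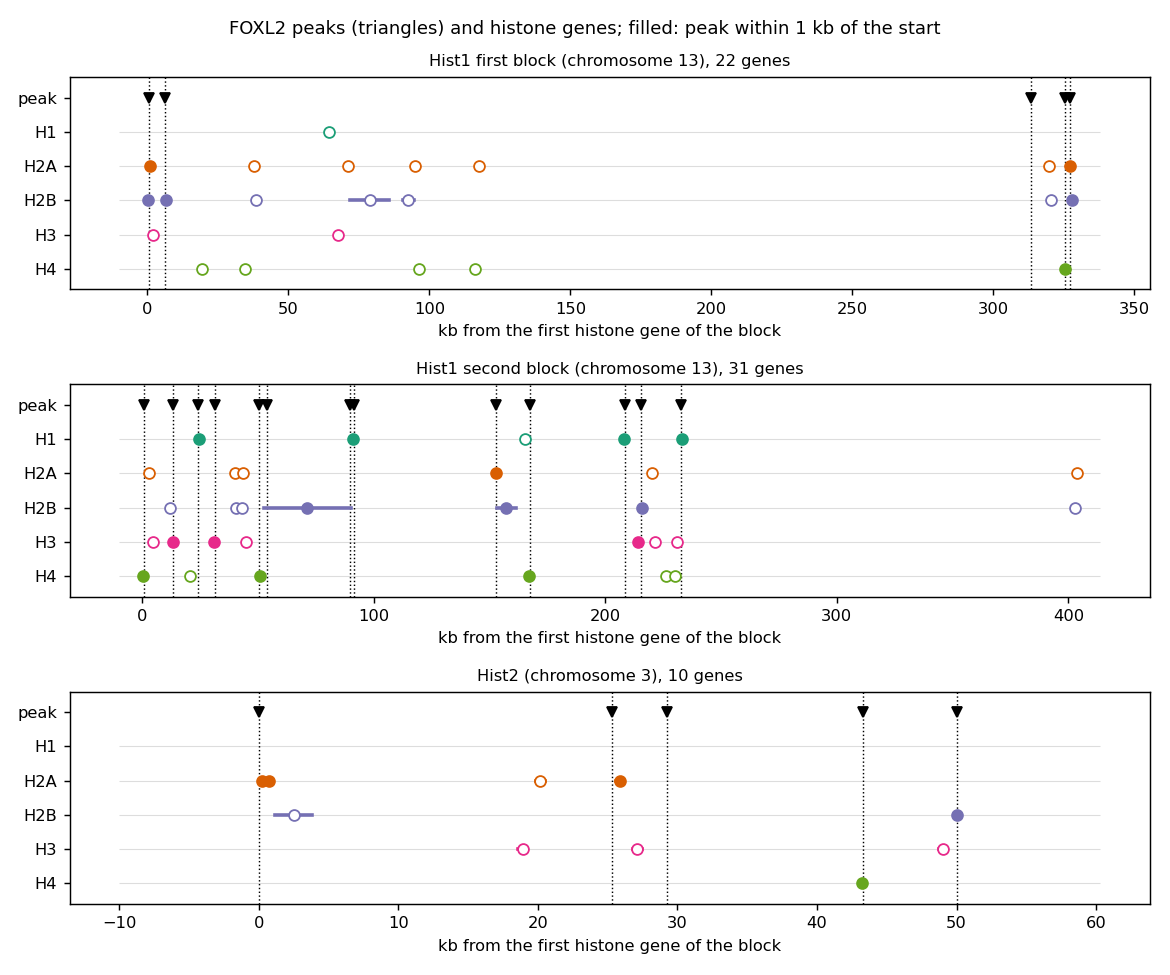
Positions of the FOXL2 peaks counted at histone genes (black triangles and dotted lines) and of histone genes (circles, with a line for long genes) in the first Hist1 block, the second Hist1 block and Hist2. The x axis gives kb from the first histone gene of each block, rows are histone classes, and a filled circle is a gene with a peak within 1 kb of its start; the 13 genes from H4c11 to H2ac24 and the pair H2bc1 and H2ac1 lie in stretches without triangles. The 4 peaks of the first block that lie beyond 10 kb of any histone gene are not drawn.

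Of the 4 genes outside the blocks, all of the H1 class, 2 had peaks. H1f0, on chromosome 15, encodes the linker histone of slowly dividing and differentiated cells. It had 1 peak, chr15:79028167-79028466, centred 104 bp inside the gene. H1f10, on chromosome 6, had 2 peaks, chr6:87981060-87981359 and chr6:87981614-87981913, centred 273 bp downstream of its start and 281 bp upstream of it. H1f7, a testis-specific linker histone gene, and H1f8, the oocyte linker histone gene, had their nearest peaks 74.8 kb and 43.9 kb away.

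A stricter count asked for a peak centre within 1 kb of the gene's own annotated start. It was met by 27 of the 67 histone genes (40.3%), against 37.3% of all protein-coding genes, which is near the background. The promoter table used for this gives no start for H3c7, H2bc4, H3c1, H2bc21 and H4c14, so for them either end of the gene was accepted. Either end was also accepted in the background, where 17492 of the 21887 protein-coding genes have a start. Among the 62 histone genes with a start, 24 had such a peak, and no background share was computed for genes with a start alone. The remaining 23 of the 50 genes with a peak in the window had it only beyond 1 kb from their start, where it usually lay at another histone gene. Within 500 bp the count was 23 genes and within 2 kb it was 33.

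At the level of peaks, 22 of the 26 lay within 1 kb of a histone start of known strand, and 19 within 300 bp. Their median distance from the start was 119 bp, with 14 downstream of the start and 8 upstream. No such share was computed over all peaks, so nearness to a start is not shown to be particular to these. The 26 peaks were also taken for lying within 10 kb of short, closely spaced genes. The closest of the 22 were at H4c4 (15 bp upstream), H4c3 (26 bp downstream), H2ac11 (28 bp upstream), H2ac6 and H2ac13 (33 bp downstream and upstream), and H1f4 (39 bp downstream). A few lay towards the other end of a gene. The peak at H4c8, chr13:23531472-23531771, was centred 577 bp downstream of the start and 143 bp past the end of the gene. That at H1f2, chr13:23739320-23739619, was 662 bp from the start and 62 bp from the end. Of the 4 peaks not within 1 kb of a start of known strand, chr13:23544322-23544621 was centred inside H3c7 and chr3:96263019-96263318 inside H4c14. Only chr13:22028824-22029123 and chr3:96249022-96249321 were centred over 1 kb outside every histone gene.

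**Figure D2:**
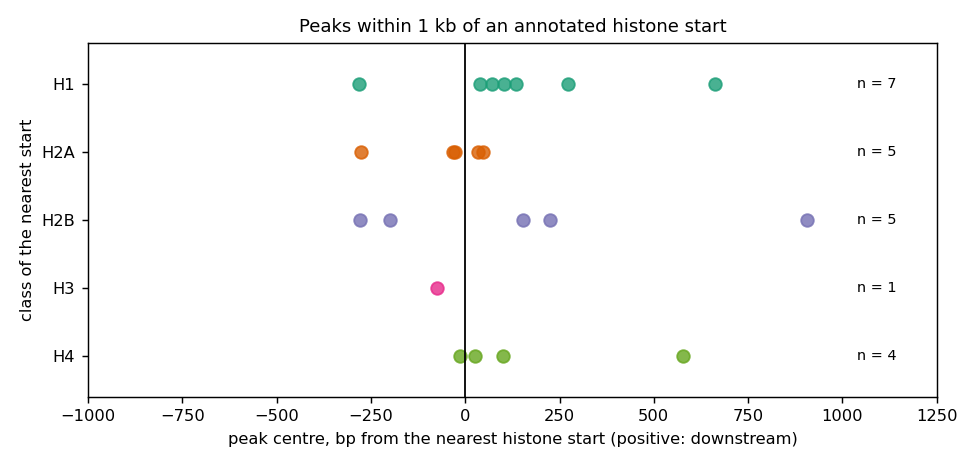
Centres of the 22 FOXL2 peaks within 1 kb of an annotated histone start, by the class of the nearest start. The x axis is the distance from the start in bp, positive downstream, and each point is 1 peak; 19 points lie within 300 bp of the line that marks the start, and H3 has a single point, at H3c6.

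By class, the linker histone genes had the highest share of own-start peaks and H3 genes the lowest. Among H1 genes, 6 of 10 (60.0%) had a peak within 1 kb of the start. These were H1f0, H1f10 and 4 replication-dependent genes of the second Hist1 block, H1f1 (70 bp downstream of the start), H1f2, H1f3 (134 bp downstream) and H1f4. The others were H1f5, in the stretch without peaks, and the germ cell genes H1f6, H1f7 and H1f8. H1f6 encodes the testis linker histone. It counted as having a peak in its window only through the peak at H4c3, 1887 bp away.

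Among H2A genes 6 of 17 (35.3%) and among H2B genes 7 of 16 (43.8%) had an own-start peak. The H2A genes were H2ac13, H2ac11, H2ac6, H2ac21 (46 bp downstream of the start), H2ac20 (949 bp downstream, through the same peak) and H2ac18 (276 bp upstream). The H2B genes were H2bc13, H2bc14, H2bc11 and H2bc3 with peaks 196 to 280 bp upstream of the start, H2bc6 (154 bp downstream, at the nearer of its starts), H2bc18 (226 bp downstream) and H2bc4. For H4 genes the count was 5 of 12 (41.7%), H4c3, H4c4, H4c8, H4c9 and H4c14. For H3 genes it was 3 of 12 (25.0%), H3c6 (76 bp upstream of the start, chr13:23562312-23562611), H3c3 (933 bp upstream) and H3c7. The wider window gave another order, with 11 of 12 H3 genes (91.7%) against 12 of 16 H2B (75.0%), 12 of 17 H2A (70.6%), 7 of 10 H1 (70.0%) and 8 of 12 H4 genes (66.7%). H3 genes thus had neighbours with peaks more often than peaks of their own. Each class holds 17 genes or fewer, and differences between classes were not tested. None of the 5 germ cell forms, H2ac1, H2bc1, H1f6, H1f7 and H1f8, had a peak at its own start. This set was put together after the values were seen, and H2ac1 and H2bc1 are a head-to-head pair, not separate cases. Most genes lack such a peak in any case, since 40.3% of the histone genes and 37.3% of all protein-coding genes have one.

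**Figure D3:**
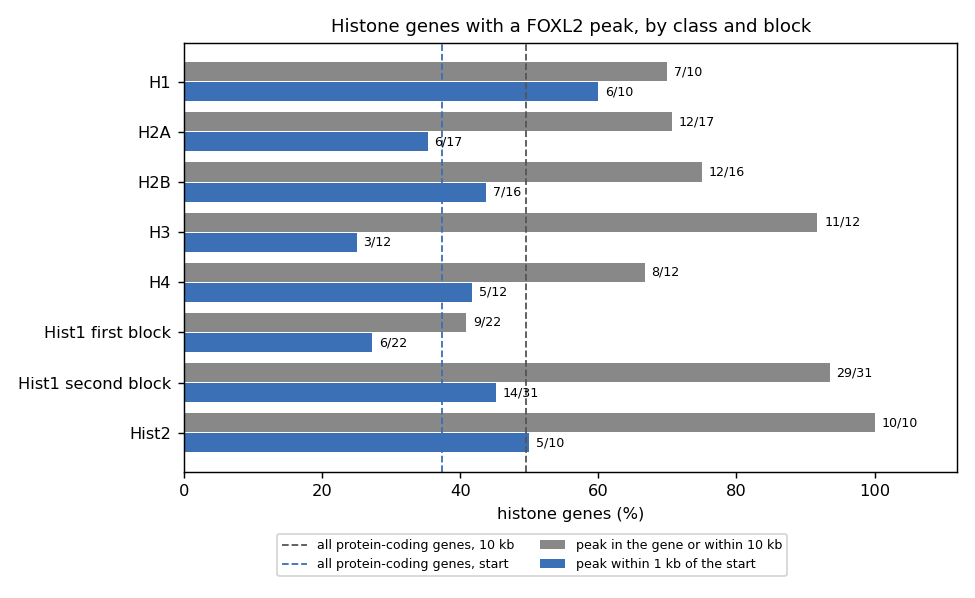
Percentage of histone genes with a FOXL2 peak, by class and by block, with counts at the bars. Grey bars count a peak in the gene or within 10 kb and blue bars a peak within 1 kb of the start; dashed lines mark all protein-coding genes, at 49.6% and 37.3%, and the first Hist1 block is the only block with a grey bar to the left of its line.

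Head-to-head H2A and H2B pairs were looked at as units. Of 9 pairs of H2A and H2B genes transcribed away from each other with starts less than 1 kb apart, 2 had a peak centre between the starts, and the other 7 had none within 1 kb of either start. Most single protein-coding genes also lack a peak at the start, since 37.3% have one, and no share for head-to-head pairs of other genes was computed. The pairs with a peak were H2bc13 with H2ac13, whose starts are 228 bp apart, and H2ac11 with H2bc11, 248 bp apart. The pairs without were H2ac15 with H2bc15, H2ac22 with H2bc22 and H2bc23 with H2ac23 in the stretch lacking peaks, H2ac12 with H2bc12, H2ac8 with H2bc8, H2bc7 with H2ac7, and the testis pair H2bc1 with H2ac1. In the second Hist1 block, H2ac8 with H2bc8 and H2bc7 with H2ac7 lay between the peaks at H3c6 and H4c4, and the nearest peak was 7172 bp from the start of H2ac7 and farther from the other 3 starts. H2ac6 and H2bc4, for which the strand of H2bc4 was not used, had a peak 33 bp downstream of the start of H2ac6 and 273 bp from the nearer end of H2bc4. H2ac20 and H2bc21 are also neighbours, with no strand given for H2bc21. Their nearest peak was 949 bp downstream of the start of H2ac20 and 1141 bp from the nearer end of H2bc21.

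The sequence in front of the starts was read from the RefSeq promoter table of GRCm38.p6, which gave 63 windows for 62 histone genes (H2bc6 has 2 starts). Bases 250 to 1 before the start are shown for 9 genes. They are the 2 occupied head-to-head promoters, an unoccupied one, a peak-bearing start each of an H3, an H4 and a replication-dependent H1 gene, H2bc3, H1f0, and H4c12 from the stretch without peaks. Each reads 5′ to 3′ on the strand of the named gene and ends at the base before its start. Capitals mark letters of the motifs searched, on either strand, so that a CCAAT box may read ATTGG.

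H2ac13: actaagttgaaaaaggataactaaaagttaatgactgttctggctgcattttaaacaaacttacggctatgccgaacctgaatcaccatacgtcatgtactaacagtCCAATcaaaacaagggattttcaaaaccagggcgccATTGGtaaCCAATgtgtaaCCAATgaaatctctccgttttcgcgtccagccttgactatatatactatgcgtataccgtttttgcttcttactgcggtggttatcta
H2bc11: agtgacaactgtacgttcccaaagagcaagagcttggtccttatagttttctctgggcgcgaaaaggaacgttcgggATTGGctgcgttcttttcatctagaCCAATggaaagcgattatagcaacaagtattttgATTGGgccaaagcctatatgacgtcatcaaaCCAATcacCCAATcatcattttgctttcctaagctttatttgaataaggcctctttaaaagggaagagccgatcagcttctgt
H2bc15: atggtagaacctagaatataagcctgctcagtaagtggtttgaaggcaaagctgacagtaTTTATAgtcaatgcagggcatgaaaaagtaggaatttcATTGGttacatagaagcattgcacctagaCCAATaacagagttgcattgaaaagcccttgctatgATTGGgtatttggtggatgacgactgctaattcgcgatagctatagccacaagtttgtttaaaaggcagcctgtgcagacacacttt
H2bc3: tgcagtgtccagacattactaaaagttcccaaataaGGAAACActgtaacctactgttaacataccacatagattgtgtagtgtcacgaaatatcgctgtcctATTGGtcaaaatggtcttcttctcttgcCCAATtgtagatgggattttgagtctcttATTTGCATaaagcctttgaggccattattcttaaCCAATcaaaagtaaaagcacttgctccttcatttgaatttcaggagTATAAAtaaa
H3c6: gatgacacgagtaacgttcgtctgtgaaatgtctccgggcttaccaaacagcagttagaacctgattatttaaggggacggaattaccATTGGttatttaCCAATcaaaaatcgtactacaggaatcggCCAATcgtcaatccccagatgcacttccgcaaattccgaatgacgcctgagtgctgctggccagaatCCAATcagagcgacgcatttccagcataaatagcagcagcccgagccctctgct
H4c4: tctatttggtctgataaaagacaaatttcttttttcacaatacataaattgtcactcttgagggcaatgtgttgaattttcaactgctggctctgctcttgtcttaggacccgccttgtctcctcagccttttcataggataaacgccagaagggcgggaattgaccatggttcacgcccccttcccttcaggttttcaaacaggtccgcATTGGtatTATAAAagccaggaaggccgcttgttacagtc
H4c12: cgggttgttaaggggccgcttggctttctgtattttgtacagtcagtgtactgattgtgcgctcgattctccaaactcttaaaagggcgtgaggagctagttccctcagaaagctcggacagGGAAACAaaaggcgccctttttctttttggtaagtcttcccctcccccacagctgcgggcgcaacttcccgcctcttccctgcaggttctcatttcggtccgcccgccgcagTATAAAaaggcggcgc
H1f4: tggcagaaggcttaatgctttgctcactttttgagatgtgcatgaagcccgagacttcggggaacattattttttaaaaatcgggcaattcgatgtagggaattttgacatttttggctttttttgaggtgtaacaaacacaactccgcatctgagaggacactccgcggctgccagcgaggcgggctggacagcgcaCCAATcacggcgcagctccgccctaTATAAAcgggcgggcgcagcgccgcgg
H1f0: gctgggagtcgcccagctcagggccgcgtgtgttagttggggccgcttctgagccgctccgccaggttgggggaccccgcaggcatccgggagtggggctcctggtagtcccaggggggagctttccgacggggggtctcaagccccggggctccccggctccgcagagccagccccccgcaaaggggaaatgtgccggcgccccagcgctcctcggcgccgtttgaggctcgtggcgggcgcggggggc

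The stretch of H2ac13 (chr13:21716162-21716411, plus strand) lies in its peak from base 182 before the start onward, and the bases of this peak hold all 4 CCAAT boxes. The stretch of H2bc11 (chr13:22042948-22043197, plus strand) spans the whole gap to H2ac11. Its peak covers 180 of the 250 bases, those farther from H2bc11, with 5 CCAAT boxes. H2bc15 (chr13:21753826-21754075, plus strand) has the same layout of a head-to-head pair and 3 CCAAT boxes, and its nearest peak was 32231 bp from the start. H3c6 (chr13:23562386-23562635, minus strand) has 226 bases in its peak, with 4 CCAAT boxes. H4c4 (chr13:23581318-23581567, plus strand) has 164 bases in its peak and H1f4 (chr13:23622559-23622808, minus strand) 111, and in each a CCAAT box and a TATA box lie close before the start. The stretch of H1f0 (chr15:79027962-79028211, plus strand) holds none of the motifs searched, and its peak covers the last 45 bases before the start. H4c12 (chr13:21750554-21750803, minus strand), which has no peak, has a TATA box 16 bp before the start.

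Motifs were searched on both strands in 21263 windows of protein-coding genes. Each full window has 300 bp, from 250 bp before to 50 bp after the start. Peak sequence outside these windows was not read, so the shares describe promoter windows and not whole peaks. The 250 bases before the start overlapped a peak in 18 of the 63 histone windows. The forkhead motif GTAAACA was in none of the 63 histone windows and in 3.01% of all windows. The looser forkhead motif TGTTTNC, which includes the reverse complement of the first, was in 16 histone windows (25.4%) and in 18.1% of all windows. It was in 5 of 25 histone windows with a peak within 1 kb of the start (20.0%) and in 11 of 38 without (28.9%). With only the 250 bp before the start searched, these were 3 of 25 (12.0%) and 9 of 38 (23.7%). Over all protein-coding genes the shares in full windows were 13.9% and 20.6%, and in the 250 bp 11.9% and 18.4%. In 2 histone windows the match lay inside a peak. They were H2bc3 (chr13:23746484-23746733, plus strand), where it begins 214 bp before the start, and H2ac11, where it begins 36 bp after the start. The motif was in 7 of 11 H4 windows and in none of the 10 H1 windows. Some of these H4 matches are copies of each other. H4c17 and H4c18 are near-identical, and H4c11 and H4c12 share the stretch that holds the match. All of these are among the windows without a peak. H4c9, which has a peak, shares the stretch around its match with H4c17 and H4c18.

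CCAAT, the core of the box bound by NF-Y, was in 52 of 63 histone windows (82.5%) against 38.2% of all windows, and in every H2A, H2B and H3 window, though in 8 of 10 H3 windows when only the 250 bp were searched. It was in 21 of 25 histone windows with a peak (84.0%) and in 31 of 38 without (81.6%). TATAAA was in 34 histone windows (54.0%) against 12.6% of all. It was in 10 of 25 windows with a peak (40.0%) and in 24 of 38 without (63.2%), and over all protein-coding genes in 5.23% with a peak and 16.9% without. These letters were counted at any position and on either strand, so not every match is a TATA box of the gene itself. The octamer ATTTGCAT, known from H2B promoters, was in 13 histone windows (20.6%) against 1.66% of all, with 6 of 25 (24.0%) and 7 of 38 (18.4%) by peak. The E2F-type letters TTTCCCGC and TTTGGCGC were in 1 (1.59%) and 0 histone windows, against 1.41% and 0.635% of all windows. Windows of head-to-head pairs overlap and so share their matches, and none of these shares was tested.

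**Figure D4:**
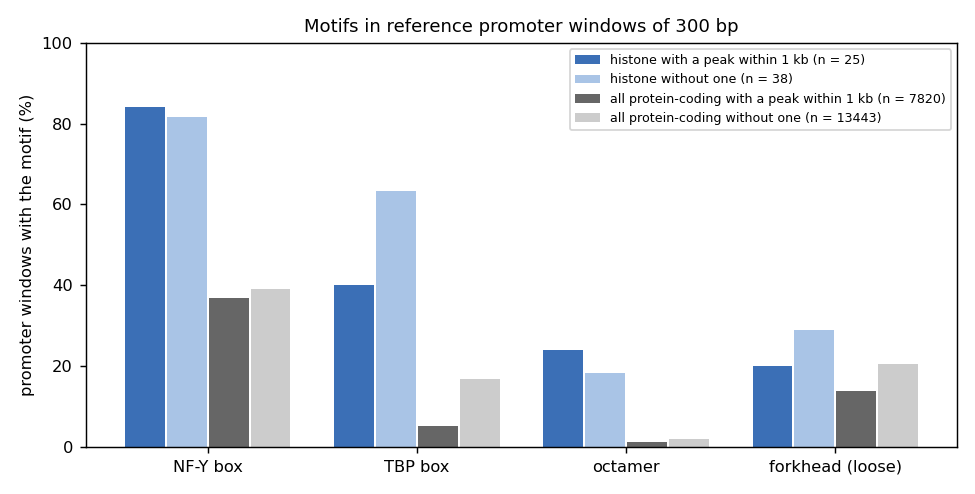
Percentage of promoter windows that hold CCAAT (labelled NF-Y box), TATAAA (labelled TBP box), the octamer or the loose forkhead motif. Matches count at any position of the window and on either strand. Blue bars are histone windows with (n = 25) and without (n = 38) a peak within 1 kb of the start and grey bars the same for all protein-coding genes. CCAAT bars of histone windows stand at 84.0% and 81.6%, and TATAAA bars are lower with a peak than without in both sets.

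Histone genes are copies of each other, and reads that fit several places can be lost or misplaced in mapping. How such reads were treated is not given in the sources used here. Words of 36 bases, a length chosen for this count, were looked up among all promoter windows of the table. In 7 of the 13 windows of the stretch without peaks some words recurred at another promoter. The share was 100% at H2bc23, 94.3% at H4c17 and H4c18, 89.4% at H2ac23, 74.7% at H2ac24 and 21.9% at H4c11 and H4c12. In the other 6 of the stretch, H2ac15, H2bc15, H1f5, H3c11, H2ac22 and H2bc22, it was 0%. Of 25 histone windows with a peak within 1 kb of the start, 2 had recurring words, H2ac18 with 69.4% and H4c9 with 1.13%. Of the remaining 25 windows 4 had any, namely H3c14 and H3c15 (80.8%), H2ac19 (69.4%) and H2ac7 (1.89%). Thus windows of the stretch without peaks included some with many recurring words, mostly in its high-coordinate part, and 6 with none. At H2ac18 the peak centre lay 276 bp before the start, outside the window in which words were counted. The peak itself reached into that window and covered 125 of the 250 bases before the start. Only promoter windows were looked up, so sequence shared with other parts of the genome was not counted. The part of mapping in this result was not tested.

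**Figure D5:**
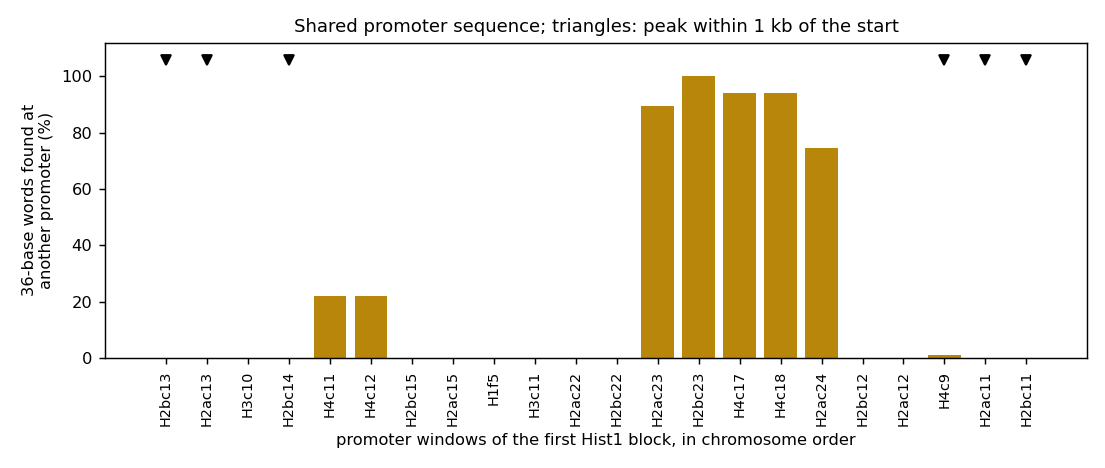
Percentage of 36-base words of each promoter window in the first Hist1 block that recur at another promoter, with windows in chromosome order along the x axis. Triangles mark a FOXL2 peak within 1 kb of the start; bars from H2ac23 to H2ac24 reach 74.7 to 100%, the windows from H2bc15 to H2bc22 have no bar, and neither group has a triangle.

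Genes that regulate, process or carry histones were counted the same way. These lists were chosen with earlier results of the peak list known. Of 19 histone chaperone genes, whose products escort histones to and from DNA, all 19 had a peak in the window and 18 (94.7%) had it within 1 kb of the start. Examples are Daxx (7 bp downstream), Nap1l1 (12 bp downstream), Ssrp1 (22 bp upstream), Chaf1a (145 bp upstream) and Asf1b (124 bp downstream). The exception was Mcm2, whose peak was 24.3 kb from its start. Of 21 genes for transcription and 3′ processing of histone mRNA, 20 (95.2%) had a peak in the window and 19 (90.5%) at the start. Npat, the coactivator of histone genes in S phase, had it 340 bp upstream, Casp8ap2 67 bp downstream, and Slbp, which binds the stem-loop of histone mRNA, 196 bp downstream. The nearest peak to the start of E2f1 was 34.1 kb away, and the peak in the window of Lsm10 lay 7.61 kb from its start. Of 13 histone variant genes outside the symbol rule, 10 (76.9%) had a peak in the window and 8 (61.5%) at the start. Among these were H2az1 (118 bp downstream), H3f3b (225 bp downstream), H3f3a (518 bp upstream) and Cenpa (176 bp downstream), which supply variant histones outside S phase or at centromeres. H2aj and H3f3c counted only through peaks 3.96 kb and 3.28 kb from their starts. The variant genes without any peak in the window were the testis genes Hils1, H2ab2 and H2ab3. Beside the start shares of these lists, the 40.3% of the clustered and linker histone genes and the 37.3% of all protein-coding genes are lower. In the window the corresponding shares were 74.6% and 49.6%, also lower than those of the lists. The differences were not tested.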

How the data were processed

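Per the submitters' processing notes, Bowtie 1.2, Picard 1.110, bedtools 2.24.0, HOMER 4.9 and build mm10 were used; which step used which tool, how peaks were thresholded and how replicates were combined is not stated in the labels. In the authors' deposited list the values are peak start and end positions in bp, with no score, count or signal. Starts were made 1-based, and distances were taken from peak centres. Genes came from the RefSeq gene table of GRCm38.p6, and starts and strands from its promoter table, which lists 62 of the 67 genes. Blocks are runs of histone genes with gaps under 500 kb. The list gives no replicate values, so no test was made; shares stand beside those of all protein-coding genes. Window counts were checked on planted peaks. A planned comparison of histone proteins was not run. Python 3.11.15, numpy 2.4.6 and pandas 2.3.3 were used. Histone genes and lists were chosen with earlier results of these data known. Named were histone genes with a peak near the start, those without any, peaks shared by 3 or more genes, and genes outside blocks; examples from the other lists, the 9 sequences and the words count were chosen after the values were seen.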

Additional observations from a re-analysis of the deposited data

How the results depend on the processing

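Over windows of 2, 5 and 50 kb, the peak edge in place of its centre, merging of peaks within 500 bp, histone genes of all kinds (70 genes) and peaks nearest to a histone gene alone, the number of histone genes with a peak ranged from 34 to 55 and that of distinct peaks from 25 to 31. The number of genes sharing a peak was 48 in the main count. It was 25 with windows of 2 kb, 36 with 5 kb and 52 with 50 kb, since narrower windows overlap less. Own-start counts ranged from 23 to 33, and motif shares over all 63 histone windows stayed within 1.5 times when only the 250 bp before the start were searched. In subsets they moved more, with TGTTTNC in windows with a peak at 12.0% in place of 20.0%, TGTTTNC in H2A windows at 17.6% in place of 29.4% and TATAAA in H2A windows at 41.2% in place of 64.7%. Adding 4 genes matched by an older symbol, an alternative chosen after seeing the data, gave 53 of 71 genes with a peak, 28 distinct peaks, 50 genes sharing a peak and 29 with one at the start. No paired analysis was possible because the single peak list carries no value per replicate, and for the same reason no replicate could be left out. Read depth is unknown, and weak binding that missed the threshold of the deposited list would leave a histone gene uncounted.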

Other observations

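Histone genes that only an older name places in the Hist3 and Hist4 groups were also looked up. H2aw (Hist3h2a), on chromosome 11, had the peak chr11:58954681-58954980, centred 145 bp downstream of its start. The same peak lay 5.92 kb from the start of its neighbour H2bu2 (Hist3h2ba), which had no peak of its own. H4f16 (Hist4h4), on chromosome 6, had the peak chr6:136804135-136804434, 147 bp downstream of its start. H4bc24 (Hist1h2br), next to H2ac24 in the first Hist1 block, had its nearest peak 107 kb from its start, so 14 neighbouring histone genes lacked a peak when it is counted.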
